A study of Mus musculus with 30 samples.

Results

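The 35 genes described here encode the proteins that take up glucose, break it down to pyruvate and lactate, carry lactate out of the cell and feed the pentose phosphate pathway. They are 35 of the 43629 genes in the deposited count tables, and were chosen by name for their place in these pathways: 3 glucose transporters, the enzymes of each glycolytic step, both lactate dehydrogenases, 2 lactate carriers and 8 enzymes of the pentose phosphate pathway. All 35 had enough counts to be tested. In wild type macrophages given IL-4, PGE2 raised the transcript of the lactate carrier Slc16a3. It lowered those of the other carrier Slc16a1, of the hexokinase Hk2 and of the transketolase Tkt. Valinomycin raised Pfkfb3, lowered Tkt less than PGE2 did and moved neither carrier past the test. It also raised Hk2, a call lost without some single libraries. Cells with an shRNA against Etv1 had less Slc2a6, Eno2, Pfkfb4 and Slc16a3 and more Slc2a3, Aldoc and H6pd than cells with the control shRNA in every condition measured.

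Glycolysis turns glucose into pyruvate, with hexokinase and phosphofructokinase as the steps that are most tightly regulated, and lactate dehydrogenase turns pyruvate into lactate while renewing the NAD+ that glycolysis needs. Lactate leaves the cell with a proton through monocarboxylate carriers of the Slc16 family. The pentose phosphate pathway branches off after hexokinase: its oxidative arm makes NADPH and its non-oxidative arm exchanges sugars with glycolysis. In macrophages these pathways are known to change with activation.

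Messenger RNA was sequenced from bone marrow derived macrophages of C57BL/6 mice, grown in 20 ng/mL CSF-1 until day 7, and every group kept CSF-1 during stimulation. In the first experiment, wild type cells had IL-4 (20 ng/mL) with PGE2 (10 µM), IL-4 (20 ng/mL) with valinomycin (10 nM), IL-4 (20 ng/mL) alone or no stimulus. In the second, cells transduced with lentivirus carrying an Etv1 shRNA or a control shRNA had IL-4 with PGE2, IL-4 or no stimulus, at the same doses. IL-4 is the cytokine that drives alternative activation of macrophages, PGE2 (prostaglandin E2) is a lipid mediator that raises cyclic AMP, valinomycin carries potassium ions across membranes and thereby dissipates the mitochondrial membrane potential, and Etv1 is a transcription factor of the ETS family. Each of the 10 groups had 3 libraries. The labels do not give the stimulation time, the hairpin sequences or the promoter that drives them, and name 1 Etv1 hairpin group. Whether the 3 libraries of a group stem from different animals or cultures is not stated either, so the p-values here describe the spread between libraries, which may be technical only.

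Wild type libraries held 10514496 to 13414293 counts and shRNA libraries 6924973 to 30473040. Levels are given as CPM, counts scaled to a common library size, on which 3 counts in a library equal 0.22 to 0.29 in the wild type and 0.098 to 0.43 in the shRNA experiment. Etv1 itself stood at 7.71 to 9.85 CPM with the Etv1 shRNA against 21.8 to 33.1 CPM with the control shRNA under IL-4 with PGE2, at 4.97 to 6.00 against 11.5 to 15.3 CPM under IL-4, and at 2.51 to 4.84 against 10.3 to 10.9 CPM without stimulus. All 8 macrophage markers exceeded 5 CPM in every group, but their summed level was 8890 to 10400 CPM in Etv1 shRNA libraries and 14300 to 21400 CPM in the other libraries. In wild type libraries the 5 dendritic cell markers summed to 314 to 387 CPM with PGE2, 692 to 805 CPM with valinomycin, 649 to 772 CPM with IL-4 and 353 to 393 CPM without stimulus, and the 8 neutrophil markers to 178 to 293 CPM over all 12. The part of these differences in the results was not tested, and in bulk RNA fewer cells of a type and less RNA per cell cannot be told apart. Replicate 2 of the wild type IL-4 group was the highest of its 3 libraries for 30 of the 35 genes, and replicate 2 of the valinomycin group for 23. Without that IL-4 library 2 calls were lost and 2 gained for IL-4, 1 lost and 2 gained for PGE2 and 3 lost for valinomycin. Without that valinomycin library 4 calls were lost and 2 gained for valinomycin. Below, such calls and values that moved by over 1.5 times are given both ways for some of the genes, and not for all.

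Levels between genes were compared as CPM per kilobase of merged exons. In wild type cells with IL-4 the order was led by Aldoa (aldolase, 583), Pkm (pyruvate kinase, 471), Ldha (lactate dehydrogenase A, 413), Pgam1 (phosphoglycerate mutase, 340) and Gapdh (297), and ended with Pfkfb2 at 1.27 and Slc2a3 at 0.918. At several steps 1 gene made up most of the transcripts. Ldha was 97.4% to 99.4% of the lactate dehydrogenase transcripts per kilobase in every group, and the myeloid hexokinase Hk3 was 64.1% to 80.6% of the hexokinase transcripts. Slc2a1, the ubiquitous glucose transporter GLUT1, was 90.8% to 96.6% of the 3 transporters in wild type groups.

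The composition of other steps changed with the stimulus. Among the carriers, Slc16a3 (MCT4, known for lactate export) made up 96.1% ± 0.30 (SD, n = 3) with PGE2, 76.3% ± 5.7 with valinomycin, 82.1% ± 3.3 with IL-4 and 82.7% ± 3.3 without stimulus in wild type cells. The share of Hk2, the inducible hexokinase, was 8.43% ± 0.79 with PGE2, 24.6% ± 2.2 with valinomycin, 17.3% ± 2.6 with IL-4 and 10.2% ± 0.34 without stimulus. Among the bifunctional enzymes, which set the level of the phosphofructokinase activator fructose 2,6-bisphosphate, Pfkfb3 held 16.3% ± 1.3 with PGE2, 46.9% ± 0.95 with valinomycin, 24.4% ± 2.2 with IL-4 and 41.8% ± 1.7 without stimulus, and Pfkfb4 most of the rest.

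**Figure D1:**
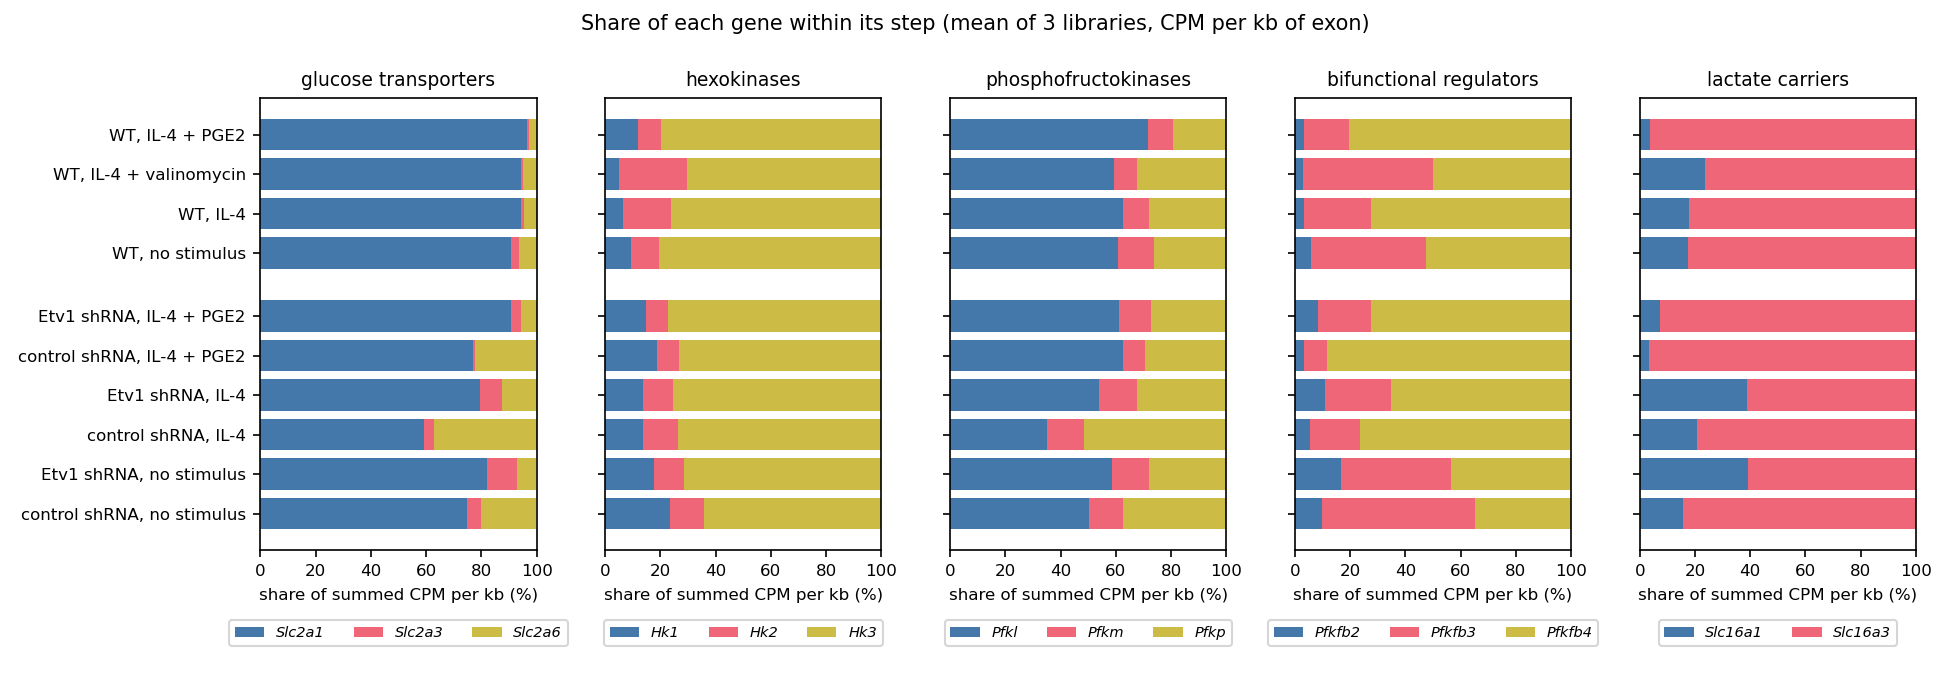
Share of each gene in the transcripts of its step, in percent of summed CPM per kilobase, as the mean of 3 libraries in each of the 10 groups. The Slc16a3 share is highest in the groups with PGE2, at 92.8% to 96.5%, and Pfkfb3 takes its largest wild type share, 46.9%, with valinomycin.

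The promoters of 4 genes are shown, picked by role: PGE2 changed their transcripts at the first step of glycolysis (Hk2), at lactate formation (Ldha) and at lactate transport (Slc16a3 and Slc16a1). They were not picked by size of change alone. Slc2a6 and Pfkfb4 had larger called changes than Ldha in some comparison, and their windows, not shown, also held a motif. Each is a RefSeq window from 250 bases before to 50 bases after a start site on GRCm38.p6. It is written 5′ to 3′ on the strand of the gene, and capitals mark the motifs searched on both strands. These were ACGTG and GCGTG, the core letters of hypoxia response elements, CACGTG, the E-box bound by MYC, TGACGTCA, the cyclic AMP response element, and CCGGAAGT, an ETS motif. A CACGTG also counts as an ACGTG on each strand. Slc16a3 is read from chr11:120948817-120949116 on the plus strand, Slc16a1 from chr3:104638414-104638713 on the plus strand, Hk2 from chr6:82774405-82774704 on the minus strand and Ldha from chr7:46845554-46845853 on the plus strand.
Slc16a3: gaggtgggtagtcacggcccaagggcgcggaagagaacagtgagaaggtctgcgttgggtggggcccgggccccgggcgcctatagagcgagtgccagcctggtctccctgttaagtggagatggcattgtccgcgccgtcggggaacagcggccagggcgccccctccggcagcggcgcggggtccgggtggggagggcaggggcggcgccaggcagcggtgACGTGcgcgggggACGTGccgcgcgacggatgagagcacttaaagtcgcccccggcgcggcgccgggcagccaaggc
Slc16a1: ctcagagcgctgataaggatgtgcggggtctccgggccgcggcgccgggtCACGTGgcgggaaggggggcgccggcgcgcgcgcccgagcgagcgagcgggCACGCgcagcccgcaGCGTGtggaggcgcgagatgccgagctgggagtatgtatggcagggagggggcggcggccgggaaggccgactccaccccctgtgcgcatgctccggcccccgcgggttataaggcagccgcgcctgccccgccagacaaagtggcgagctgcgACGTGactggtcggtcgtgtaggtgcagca
Hk2: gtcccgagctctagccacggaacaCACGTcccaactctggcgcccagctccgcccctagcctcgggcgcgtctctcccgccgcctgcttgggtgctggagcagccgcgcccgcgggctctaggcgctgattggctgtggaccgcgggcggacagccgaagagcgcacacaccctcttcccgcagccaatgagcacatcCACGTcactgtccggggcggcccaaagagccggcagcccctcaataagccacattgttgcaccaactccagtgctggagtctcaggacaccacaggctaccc
Ldha: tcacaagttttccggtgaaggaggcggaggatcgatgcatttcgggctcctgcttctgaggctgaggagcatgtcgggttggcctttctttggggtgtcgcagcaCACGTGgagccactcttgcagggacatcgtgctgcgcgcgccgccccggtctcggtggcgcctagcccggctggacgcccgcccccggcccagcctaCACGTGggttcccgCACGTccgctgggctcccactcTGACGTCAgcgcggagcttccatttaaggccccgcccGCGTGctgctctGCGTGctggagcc

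The Slc16a3 window held ACGTG at -27 and -14, counted from the start site. Slc16a1 held CACGTG at -200, ACGTG at 21, GCGTG on the opposite strand at -149 and GCGTG at -134, and Hk2 held ACGTG on the opposite strand at -226 and -52. The Ldha window shown held CACGTG at -145 and -48, ACGTG on the opposite strand at -34, TGACGTCA at -12, and GCGTG at 26 and 38. A further Ldha window, not shown, held only GCGTG, at -59 on the opposite strand and at 41. RefSeq windows matched 34 of the 35 genes, with 49 windows in all. ACGTG was in 42.9% of these (21 of 49, from 17 genes) and in 19.6% of all 32851 promoter windows of the same length. GCGTG was in 59.2% against 32.4%, CACGTG in 10.2% against 7.15% and TGACGTCA in 2.04% against 1.79%. The Ldha window shown was the only 1 of the 49 with TGACGTCA. CCGGAAGT was in none of the 49 windows (0%) and in 3.89% of all. These matches describe letters and do not show that a factor binds.

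Adding PGE2 to IL-4 in wild type cells moved 25 of the 35 genes past the test (edgeR's quasi-likelihood test, Benjamini-Hochberg adjusted p under 0.05 over all genes), 11 higher and 14 lower, where 59.4% of all 12824 tested genes passed (29.9% higher and 29.5% lower). Of these calls, 20 held with each library left out in turn. Valinomycin added to IL-4 moved 15 of the 35 past the test, 5 higher and 10 lower, against 38.4% of all genes (19.4% and 18.9%), and the split was 3 higher and 12 lower with upper quartile scaling and 3 and 11 with total library size. IL-4 against no stimulus moved 16, 8 higher and 8 lower, against 46.4% (24.1% and 22.4%). The shares of members called by valinomycin and by IL-4 lie near those of all genes. The median log2 change of the 35 genes was -0.052 for PGE2, -0.10 for valinomycin and 0.0083 for IL-4, beside 0.0058, -0.027 and 0.010 over all genes, so the members moved in both directions around the rest. The PGE2, valinomycin and IL-4 comparisons share the 3 IL-4 libraries.

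**Figure D2:**
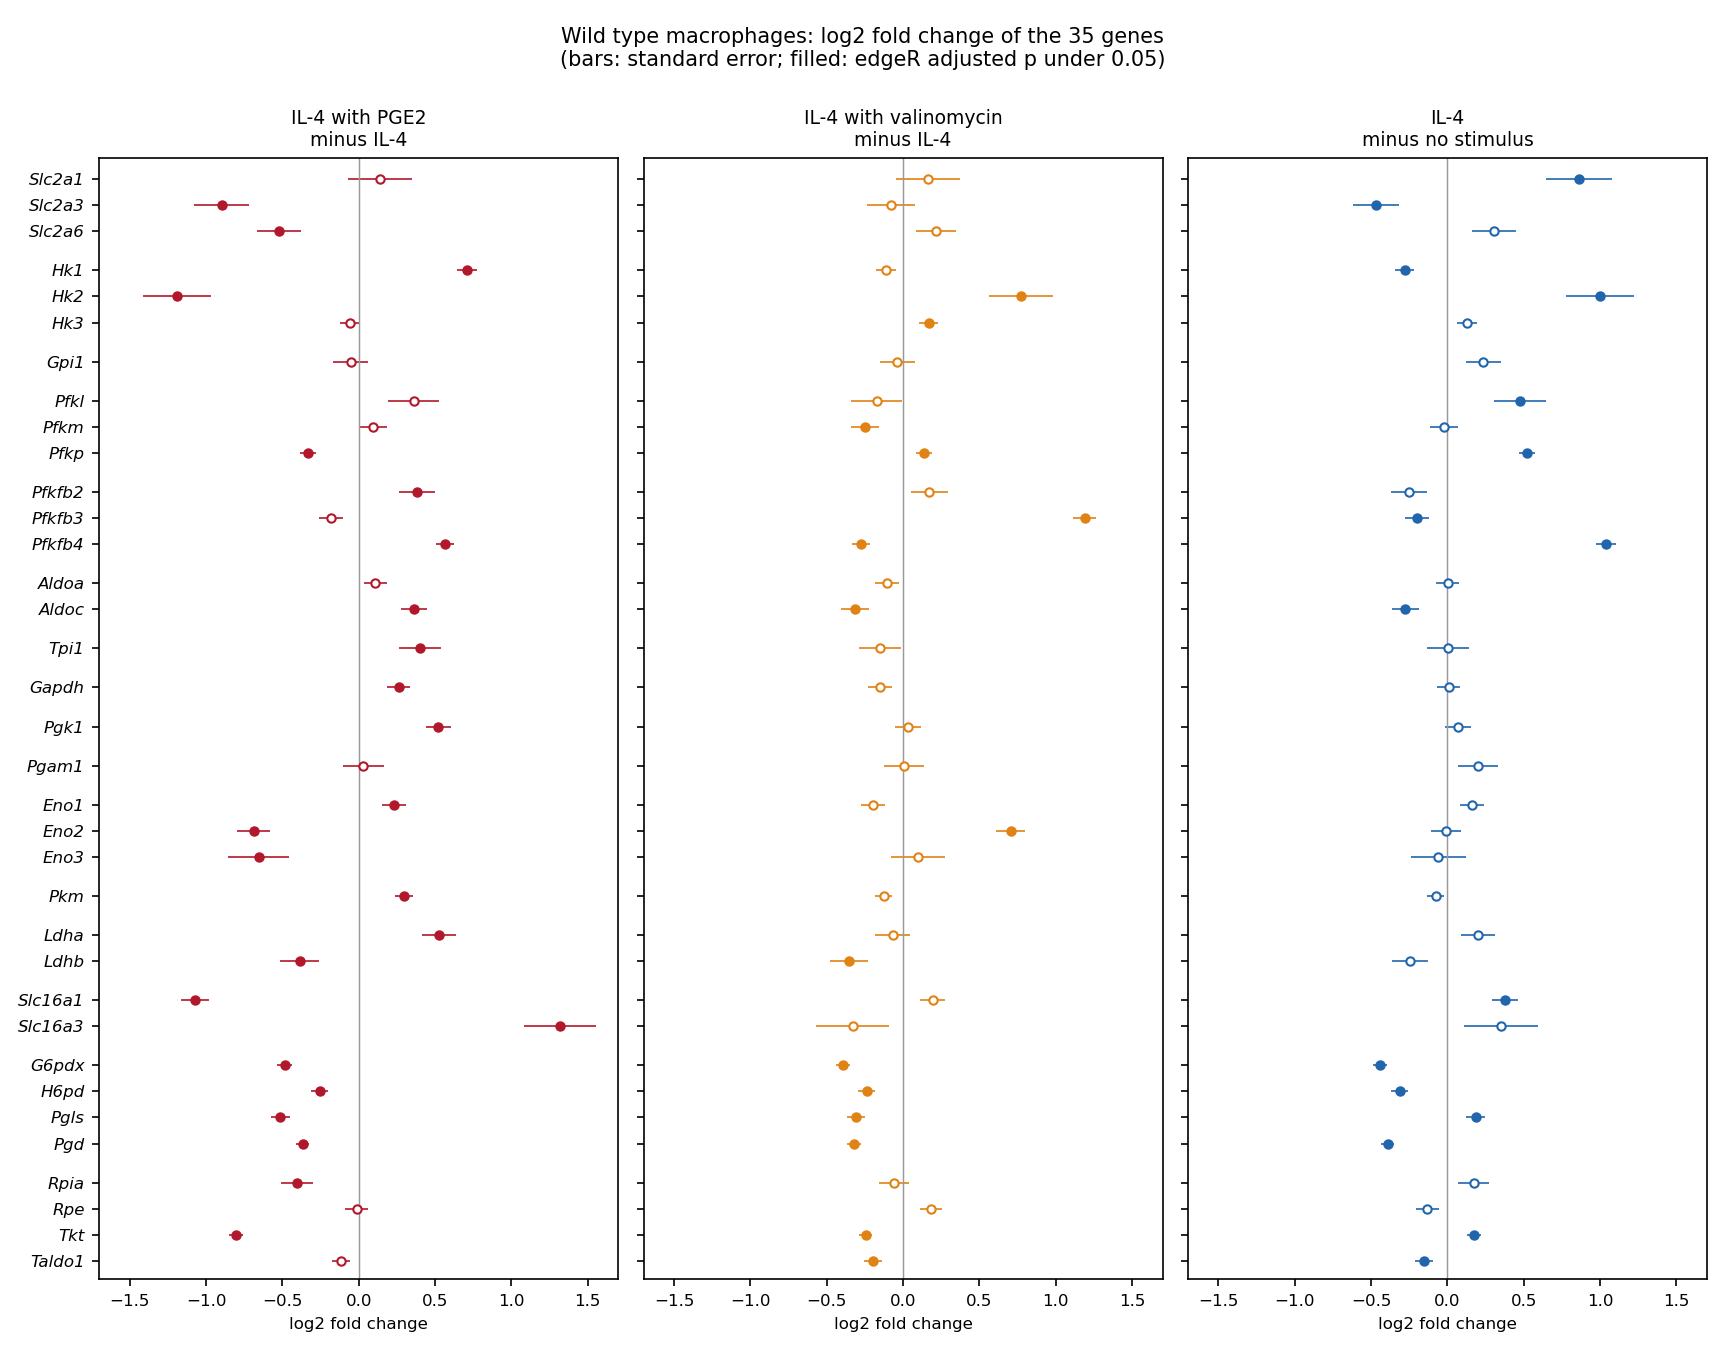
Log2 fold change of the 35 genes in wild type macrophages, ± SE from the edgeR fit, for IL-4 with PGE2 against IL-4, IL-4 with valinomycin against IL-4, and IL-4 against no stimulus. Filled points passed an adjusted p of 0.05. Slc16a3 lies highest for PGE2, at 1.32, and Pfkfb3 for valinomycin, at 1.19.

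At the step of glucose entry, IL-4 raised Slc2a1, and PGE2 lowered the minor transporters. Slc2a1 stood at 277, 284 and 302 CPM with PGE2, at 225, 342 and 311 CPM with valinomycin, at 214, 342 and 227 CPM with IL-4 and at 155, 153 and 123 CPM without stimulus. All IL-4 libraries were above the unstimulated ones, with a log2 fold change of 0.86 ± 0.22 (SE; edgeR adjusted p = 0.0104), while the PGE2 and valinomycin libraries overlapped those with IL-4. Without IL-4 replicate 2, the highest of its group, the IL-4 change was 0.62 (adjusted p = 0.0251). Slc2a1 was not called for PGE2 (0.14, and 0.38 without that library, edgeR adjusted p = 0.596 and 0.105) or for valinomycin (0.16, and 0.41 without it, adjusted p = 0.589 and 0.124). Slc2a3, the high-affinity transporter GLUT3, had 3.14, 4.11 and 3.5 CPM with PGE2 against 6.01, 6.77 and 7.18 CPM with IL-4, a change of -0.90 ± 0.18 (edgeR adjusted p = 0.000147) with no overlap. Slc2a6, GLUT6, a transporter of lysosomal membranes, had 8.27, 6.51 and 8.65 CPM with PGE2 against 10.1, 12.3 and 11.2 CPM with IL-4 (-0.52 ± 0.14, edgeR adjusted p = 0.00364).

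At hexokinase, which traps glucose in the cell, PGE2 moved Hk1 and Hk2 in opposite directions. Hk2 had 85.0, 90.9 and 110 CPM with PGE2, 308, 429 and 369 CPM with valinomycin, 167, 287 and 194 CPM with IL-4, and 117, 110 and 96.6 CPM without stimulus. The 3 stimulated groups did not overlap with each other: Hk2 was highest with valinomycin and lowest with PGE2, where it reached the range without stimulus. By edgeR, the change was 1.0 ± 0.22 for IL-4 (adjusted p = 0.0053), -1.19 ± 0.22 for PGE2 (adjusted p = 0.00162) and 0.77 ± 0.21 for valinomycin (adjusted p = 0.0188). Without IL-4 replicate 2 the IL-4 change was 0.75 (adjusted p = 0.00889). The valinomycin call was lost without IL-4 replicate 1 (0.62, adjusted p = 0.0538), IL-4 replicate 3 (0.70, adjusted p = 0.0668) or valinomycin replicate 2 (0.66, adjusted p = 0.0631). Hk1, the constitutive enzyme, went the other way: it had 178, 189 and 201 CPM with PGE2 against 106, 128 and 112 CPM with IL-4 (0.71 ± 0.064, edgeR adjusted p = 3.89e-09), and IL-4 lowered it against the 139 to 142 CPM without stimulus (-0.28 ± 0.065, adjusted p = 0.00111). Hk3 did not pass the test for PGE2 (-0.055 ± 0.064, adjusted p = 0.471). Gpi1, the isomerase that follows hexokinase, was not called in any of the 3 comparisons. For IL-4, Gpi1 was at 0.235, and at 0.131 without IL-4 replicate 2. Hk3, also not called for IL-4, was at 0.129, and at 0.0472 without that library.

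Both abundant bifunctional enzymes differed between the stimuli. Pfkfb4 had 180, 209 and 219 CPM with PGE2, 105, 118 and 117 CPM with valinomycin, 137, 137 and 137 CPM with IL-4 and 68.1, 64.6 and 67.5 CPM without stimulus. No group overlapped another: IL-4 raised it by 1.04 ± 0.064 (edgeR adjusted p = 2.85e-12), PGE2 raised it further by 0.57 ± 0.060 (adjusted p = 2.43e-08) and valinomycin lowered it by 0.28 ± 0.061 (adjusted p = 0.000984). Pfkfb3 had 62.1, 59.1 and 69.5 CPM with PGE2, 158, 173 and 164 CPM with valinomycin, 64.8, 82.0 and 69.1 CPM with IL-4 and 88.5, 82.4 and 77.5 CPM without stimulus. Only the valinomycin libraries stood apart from every other group for Pfkfb3, with a change against IL-4 of 1.19 ± 0.075 (edgeR adjusted p = 5.64e-10), and PGE2 did not move it past the test (-0.18 ± 0.080, adjusted p = 0.0575; -0.080 without IL-4 replicate 2).

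Of the phosphofructokinases themselves, Pfkp, the platelet type, rose with IL-4 (0.52 ± 0.054, edgeR adjusted p = 2.05e-08) and fell with PGE2 (-0.33 ± 0.054, adjusted p = 1.04e-05). It had 152, 160 and 166 CPM with PGE2, 197, 206 and 200 CPM with IL-4 and 145, 144 and 131 CPM without stimulus, so the PGE2 libraries lay between the others without overlap. Pfkl, the liver type and the most abundant, had 288, 297 and 296 CPM with PGE2 against 199, 285 and 203 CPM with IL-4. The PGE2 libraries were all higher, but the change of 0.36 ± 0.17 was called only without IL-4 replicate 2 (edgeR adjusted p = 0.0945, and 0.55 with adjusted p = 0.00797 without it). The IL-4 change of Pfkl, 0.48 ± 0.17 (adjusted p = 0.0471), was lost without IL-4 replicate 2 (0.29, adjusted p = 0.126), unstimulated replicate 2 (0.52, adjusted p = 0.0752) or unstimulated replicate 3 (0.36, adjusted p = 0.140).

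In lower glycolysis, PGE2 raised Pgk1, Pkm and Gapdh by small amounts. Pgk1, phosphoglycerate kinase, had 565, 592 and 622 CPM with PGE2 against 377, 444 and 417 CPM with IL-4 (0.52 ± 0.083, edgeR adjusted p = 9.8e-05). Pkm had 2920, 2850 and 2910 CPM with PGE2 against 2180, 2580 and 2310 CPM with IL-4 (0.30 ± 0.057, edgeR adjusted p = 9.49e-05), and Gapdh 1400, 1470 and 1550 against 1110, 1340 and 1240 CPM (0.26 ± 0.075, adjusted p = 0.00727). The groups did not overlap for any of the 3 genes. Tpi1, triose phosphate isomerase, at 0.40 ± 0.14 (adjusted p = 0.0323), was called only by a narrow margin: without 5 of the 6 libraries, each in turn, it was between 0.32 and 0.43 and missed the threshold, and Eno1, the main enolase, missed it without 4 of the 6. Aldoa (0.11), Pgam1 (0.031) and Gpi1 (-0.052) were not called. Without IL-4 replicate 2 they were at 0.20, 0.17 and 0.051, and Aldoa was then called (edgeR adjusted p = 0.0121). For Pgk1, Pgam1, Eno1, Pkm and Gapdh, 24.7% to 53.9% of the 50-base windows also occur in other annotated genes, so their levels are uncertain. For Pkm the main such gene is Gm49759, which overlaps it on the same strand by 767 bases. The share was 21% for Ldhb and 18.9% for Pgls, which Fam129c overlaps on the same strand, so these levels are uncertain too.

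Eno2, the enolase best known from neurons, went against the main enolase. It had 11, 12 and 13.4 CPM with PGE2, 32.0, 30.3 and 32.6 CPM with valinomycin, 16.8, 20.9 and 20.4 CPM with IL-4 and 21.8, 19.8 and 17.3 CPM without stimulus. The PGE2 libraries were below and the valinomycin libraries above all others, with changes of -0.69 ± 0.11 (edgeR adjusted p = 7.54e-06) and 0.70 ± 0.092 (edgeR adjusted p = 2.05e-06). Aldoc, the minor aldolase, rose with PGE2 (0.36 ± 0.086, edgeR adjusted p = 0.000955) and fell with valinomycin (-0.32 ± 0.091, adjusted p = 0.00815).

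At the lactate end, PGE2 raised Ldha and MCT4 and lowered the minor Ldhb and MCT1. Ldha had 1860, 2010 and 2040 CPM with PGE2 against 1190, 1570 and 1340 CPM with IL-4 (0.53 ± 0.11, edgeR adjusted p = 0.00228). Ldhb, the other lactate dehydrogenase subunit, had 9.65, 9.17 and 10.7 CPM with PGE2 against 12, 13.4 and 13 CPM with IL-4 (-0.39 ± 0.13, edgeR adjusted p = 0.0123), a call lost without PGE2 replicate 2 (-0.34, adjusted p = 0.0556). Slc16a3 had 465, 490 and 524 CPM with PGE2, 116, 191 and 166 CPM with valinomycin, 160, 263 and 169 CPM with IL-4 and 174, 166 and 126 CPM without stimulus. Only the PGE2 libraries stood apart, by 1.32 ± 0.24 (edgeR adjusted p = 0.00123), while the IL-4 change of 0.35 ± 0.24 and the valinomycin change of -0.33 ± 0.24 did not pass (adjusted p = 0.281 and 0.327). These 2 values rested on IL-4 replicate 2, the library at 263 CPM: without it Slc16a3 changed by 0.088 with IL-4, by -0.069 with valinomycin and by 1.58 with PGE2 (edgeR adjusted p = 0.79, 0.849 and 0.000458). Slc16a1 (MCT1, a carrier that works in either direction) had 15.6, 15.1 and 18.9 CPM with PGE2, 42.1, 41.4 and 34.9 CPM with valinomycin, 34.6, 36.1 and 32.9 CPM with IL-4 and 24.6, 27.2 and 27.9 CPM without stimulus. It was higher with IL-4 than without stimulus (0.38 ± 0.086, edgeR adjusted p = 0.000843), and with PGE2 it lay below every other group (-1.07 ± 0.093 against IL-4, adjusted p = 7.49e-10). Added per kilobase, the carriers had 96.4 ± 6.0 CPM with PGE2, 38.5 ± 7.0 with valinomycin, 45.0 ± 11 with IL-4 and 35.3 ± 4.5 without stimulus.

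Most of the pentose phosphate genes fell with PGE2, in both arms, and many of them also with valinomycin. Of the 8, 6 were called lower with PGE2 (G6pdx, H6pd, Pgls, Pgd, Rpia and Tkt), against 29.5% of all genes. Rpe (-0.013, edgeR adjusted p = 0.896) and Taldo1 (-0.12, adjusted p = 0.107) were not called, and none was called higher, against 29.9%. Valinomycin also lowered G6pdx, H6pd, Pgls, Pgd and Tkt, where 18.9% of all genes were called lower. It lowered Taldo1 as well, with overlapping libraries (-0.20 ± 0.060, edgeR adjusted p = 0.0124). Rpia and Rpe were not called with valinomycin. Tkt, transketolase of the non-oxidative arm, had 273, 283 and 264 CPM with PGE2, 400, 412 and 396 CPM with valinomycin, 455, 500 and 477 CPM with IL-4 and 415, 430 and 425 CPM without stimulus. The PGE2 libraries lay below all others (-0.80 ± 0.045 against IL-4, edgeR adjusted p = 2.89e-13), and valinomycin lowered it less (-0.24 ± 0.045, adjusted p = 0.000121). G6pdx, the enzyme that commits glucose 6-phosphate to the oxidative arm, had 116, 122 and 110 CPM with PGE2, 121, 129 and 121 CPM with valinomycin, 161, 166 and 160 CPM with IL-4 and 220, 215 and 228 CPM without stimulus. IL-4 alone thus lowered it (-0.44 ± 0.047, edgeR adjusted p = 2.84e-08), and PGE2 and valinomycin lowered it again (-0.48 ± 0.048 and -0.39 ± 0.048).

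Of the other oxidative enzymes, H6pd and Pgd also fell at each step, and Pgls fell with PGE2 and valinomycin but not with IL-4. H6pd, which performs the first oxidative reactions inside the endoplasmic reticulum, had 69.3, 67.7 and 66.6 CPM with PGE2, 71.4, 68.2 and 66.8 CPM with valinomycin, 88.2, 76.0 and 79.4 CPM with IL-4 and 99.7, 98.9 and 104 CPM without stimulus. Pgd, the second NADPH-producing enzyme, had 359, 357 and 328 CPM with PGE2, 364, 361 and 353 CPM with valinomycin, 447, 456 and 444 CPM with IL-4 and 576, 586 and 604 CPM without stimulus. In both genes IL-4 was below no stimulus, and PGE2 and valinomycin were below IL-4, with no overlap at either step and all 6 changes called. Pgls, which opens the lactone between the 2 oxidative reactions, had 57, 56.8 and 55.5 CPM with PGE2, 67, 63.4 and 64.7 CPM with valinomycin, 74.4, 86.2 and 81.1 CPM with IL-4 and 70.4, 76.2 and 66.6 CPM without stimulus. It was lower with PGE2 (-0.51 ± 0.061, edgeR adjusted p = 1.27e-07) and valinomycin (-0.31 ± 0.060, adjusted p = 0.000231) than with IL-4. IL-4 was called higher than no stimulus (0.18 ± 0.060, edgeR adjusted p = 0.0136), with overlapping libraries. This call was lost without IL-4 replicate 2 (0.13, adjusted p = 0.0902) or unstimulated replicate 3 (0.14, adjusted p = 0.0983). Summed per kilobase, the 4 genes of the oxidative arm had 120 ± 4.7 CPM with PGE2, 126 ± 1.9 with valinomycin, 159 ± 2.5 with IL-4 and 201 ± 3.5 without stimulus.

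**Figure D3:**
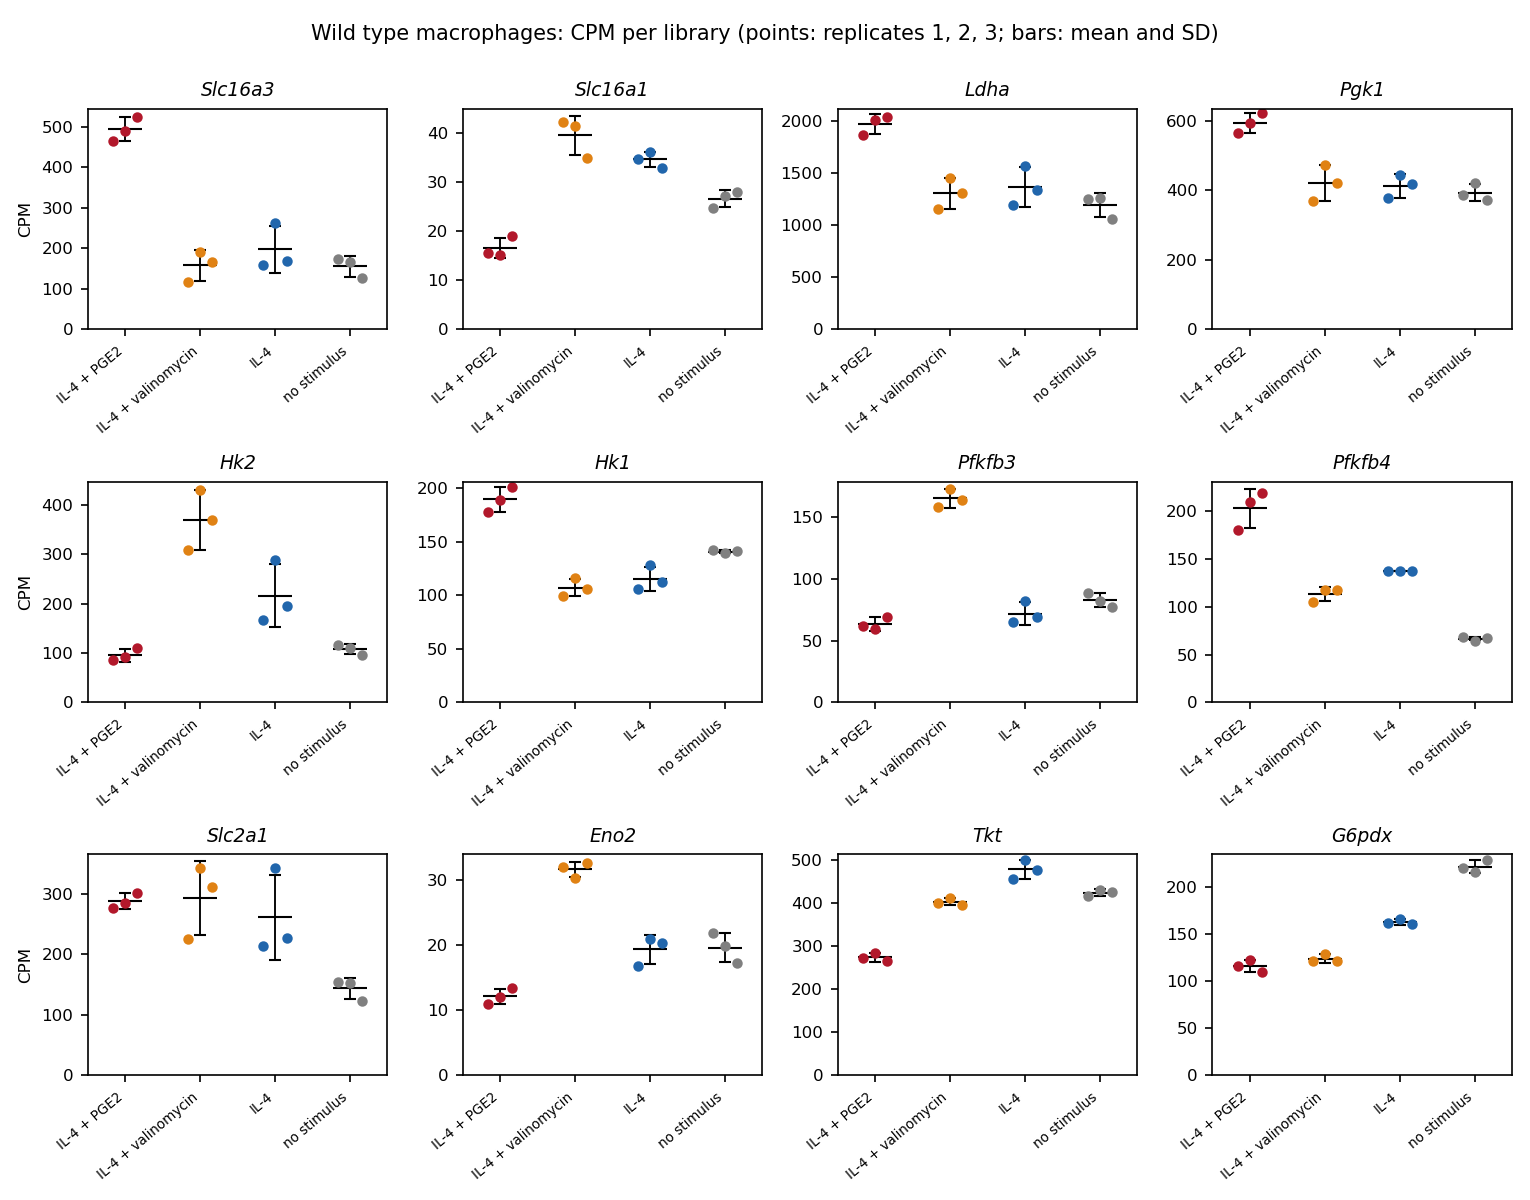
CPM of 12 genes in each wild type library (points, 3 per group) with the group mean, for IL-4 with PGE2, IL-4 with valinomycin, IL-4 and no stimulus. Slc16a3 stands apart with PGE2 at 465 to 524 CPM, and Pfkfb3 with valinomycin at 158 to 173 CPM.

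PGE2 and valinomycin were also compared directly, at 10 µM and 10 nM on the same IL-4 background. Of the 35 genes, 26 differed past the test, 13 higher and 13 lower with PGE2, against 63.2% of all genes (31.7% and 31.5%). The largest differences were Hk2 (-1.96 ± 0.22, edgeR adjusted p = 5.66e-05), Slc16a3 (1.65 ± 0.24, adjusted p = 0.000299), Eno2 (-1.39 ± 0.10, adjusted p = 2.31e-11) and Pfkfb3 (-1.38 ± 0.076, adjusted p = 1.3e-11). For 3 of the oxidative pentose phosphate genes the difference did not pass: it was -0.092 ± 0.049 for G6pdx (adjusted p = 0.108), -0.019 ± 0.057 for H6pd (adjusted p = 0.794) and -0.045 ± 0.044 for Pgd (adjusted p = 0.383), which does not show that the agents act alike on them.

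In the shRNA experiment, Etv1 shRNA was compared with control shRNA in each condition. Under IL-4 with PGE2, 25 of the 35 genes were called, 12 higher and 13 lower, against 54.3% of all 12382 tested genes (27.6% and 26.7%). Under IL-4, 23 were called, 13 higher and 10 lower, against 51% (25.4% and 25.6%), and without stimulus 23, 7 higher and 16 lower, against 51.7% (24.9% and 26.8%). The shares lie at 65.7% to 71.4% of the members. In all 3 conditions, 5 genes were higher (Slc2a3, Gpi1, Aldoc, G6pdx and H6pd) and 9 lower (Slc2a6, Hk1, Hk2, Pfkfb4, Gapdh, Pgk1, Eno2, Slc16a3 and Rpe). The share of all genes called alike in all 3 is not given here. The conditions share no library but rest on the same Etv1 hairpin group. Same-numbered libraries of each shRNA also correlated across conditions, so the 3 comparisons are not independent. Scaling by total library size moved the all-gene median in these comparisons by 0.118 to 0.157 on the log2 scale and changed the split to 15 higher and 9 lower under IL-4 with PGE2 and to 13 and 10 without stimulus.

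Among the glucose transporters, Slc2a6 was lower and Slc2a3 higher with the Etv1 shRNA. Slc2a6 had 10.8, 13.2 and 11.5 CPM with the Etv1 shRNA against 79.0, 50.9 and 80.6 CPM with the control shRNA under IL-4 with PGE2 (-2.58 ± 0.19, edgeR adjusted p = 2.93e-08). Under IL-4 it had 21.6, 29.3 and 22.6 against 98.5, 77.4 and 98.6 CPM (-1.90 ± 0.18, edgeR adjusted p = 4.02e-07), and without stimulus 9.81, 13.6 and 12.5 against 46.4, 38.8 and 47.2 CPM (-1.86 ± 0.19, adjusted p = 1.38e-06). No library overlapped. Slc2a3 went the other way, with 18.4, 17.1 and 18.5 against 6.34, 5.62 and 5.74 CPM under IL-4 with PGE2 (1.62 ± 0.13, edgeR adjusted p = 5.55e-09), 41.6, 35.4 and 33.5 against 19.8, 17.9 and 20.8 CPM under IL-4, and 46.8, 37.1 and 37.0 against 26.9, 21.0 and 23.2 CPM without stimulus. As a share of the transporters per kilobase, Slc2a6 was 12.4% ± 2.2 with the Etv1 shRNA and 37.3% ± 3.9 with the control shRNA under IL-4. Slc2a1 was lower with the Etv1 shRNA under IL-4 with PGE2 (-0.29 ± 0.071) and without stimulus (-0.24 ± 0.072), and was not called under IL-4 (0.12 ± 0.072, edgeR adjusted p = 0.166).

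Among the regulated steps, Pfkfb4 and Hk2 were lower with the Etv1 shRNA. Pfkfb4 had 97.4, 102 and 106 CPM with the Etv1 shRNA against 265, 251 and 299 CPM with the control shRNA under IL-4 with PGE2 (-1.42 ± 0.085, edgeR adjusted p = 9.82e-11), and 73.1, 66.6 and 81.6 against 138, 124 and 149 CPM under IL-4 (-0.89 ± 0.087, adjusted p = 7.61e-08). Without stimulus it had 33.1, 29.4 and 32.4 against 36.6, 42.5 and 35.2 CPM, a smaller difference (-0.27 ± 0.095, edgeR adjusted p = 0.0218) that was lost without replicate 2 of the control shRNA (-0.19, adjusted p = 0.124) or of the Etv1 shRNA (-0.22, adjusted p = 0.103). The groups were separate in all 3 conditions. Hk2 had 49.1, 44.6 and 45.9 against 58.5, 60.6 and 61.4 CPM under IL-4 with PGE2 (-0.37 ± 0.053), 70.6, 69.1 and 73.2 against 87.2, 85.3 and 90.3 CPM under IL-4 (-0.30 ± 0.052), and 62.2, 60.0 and 59.7 against 82.4, 85.8 and 89.9 CPM without stimulus (-0.51 ± 0.052). Pfkfb3 was called in 1 condition: it had 43.1, 45.9 and 44.8 against 87.1, 109 and 87.9 CPM without stimulus (-1.08 ± 0.10, edgeR adjusted p = 8.28e-08), and did not pass under IL-4 (-0.26 ± 0.11, adjusted p = 0.0508) or IL-4 with PGE2 (0.026 ± 0.11, adjusted p = 0.857).

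Lower glycolysis was split gene by gene. Eno2 had 1.43, 1.02 and 1.81 CPM with the Etv1 shRNA against 6.82, 3.75 and 7.65 CPM with the control shRNA under IL-4 with PGE2, 1.86, 1.56 and 1.49 against 8.48, 7.45 and 8.22 CPM under IL-4, and 1.88, 2.34 and 1.87 against 8.75, 6.84 and 6.92 CPM without stimulus. The changes were -2.13 ± 0.25, -2.30 ± 0.25 and -1.89 ± 0.23 (edgeR adjusted p = 6.16e-07, 2.41e-07 and 1.37e-06), with no overlap. Aldoc was higher in every condition, with 36.4, 35 and 34.7 against 17.2, 23.3 and 15.8 CPM under IL-4 with PGE2 (0.95 ± 0.17), 35.6, 40.8 and 31.6 against 12.3, 20.4 and 16.4 CPM under IL-4 (1.16 ± 0.18) and 40.6, 44.9 and 38.6 against 21.4, 30.1 and 22.3 CPM without stimulus (0.76 ± 0.17). Gapdh, often used as a reference transcript, was lower in all 3 conditions, by 0.68 ± 0.061, 0.64 ± 0.061 and 0.76 ± 0.061 on the log2 scale, with 688, 699 and 790 against 1150, 1150 and 1190 CPM under IL-4 with PGE2. Pgk1 was also lower in each, by 0.575, 0.586 and 0.80. Aldoa, Tpi1 and Pkm were each called higher under IL-4 (0.27, 0.33 and 0.20) and not called without stimulus. Under IL-4 with PGE2, Tpi1 was called higher (0.15, edgeR adjusted p = 0.0305), a call lost without any 1 of 4 of the 6 libraries. Aldoa (0.066, adjusted p = 0.368) and Pkm (-0.056, adjusted p = 0.464) were not called. The Pkm call under IL-4 was lost without control shRNA IL-4 replicate 1 (0.13, adjusted p = 0.108), control replicate 3 (0.17, adjusted p = 0.0518) or Etv1 shRNA IL-4 replicate 1 (0.17, adjusted p = 0.055).

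With the Etv1 shRNA the carrier Slc16a3 was lower, while H6pd and G6pdx of the oxidative arm were higher in each condition and the carrier Slc16a1 in 2 of them. Slc16a3 had 239, 233 and 284 CPM with the Etv1 shRNA against 607, 568 and 652 CPM with the control shRNA under IL-4 with PGE2 (-1.27 ± 0.076, edgeR adjusted p = 7.93e-11), 64.9, 64.9 and 68.6 against 79.1, 87.6 and 84.8 CPM under IL-4 (-0.34 ± 0.080, adjusted p = 0.00156), and 75.5, 79.1 and 84.6 against 158, 140 and 164 CPM without stimulus (-0.95 ± 0.078, adjusted p = 8.29e-09). Slc16a1 had 17.7, 15.3 and 15.7 against 18.8, 17.2 and 18.5 CPM under IL-4 with PGE2 (-0.16 ± 0.11, edgeR adjusted p = 0.227), 40.5, 31.1 and 33.9 against 20.0, 15.8 and 19.5 CPM under IL-4 (0.92 ± 0.10, adjusted p = 5.47e-07) and 42.2, 42.3 and 43.1 against 25.5, 21.3 and 25.4 CPM without stimulus (0.82 ± 0.099, adjusted p = 1.2e-06). Slc16a3 was thus below the control in every library, and Slc16a1 above it except under PGE2, where the groups overlapped. H6pd had 119, 129 and 112 against 56.4, 54.7 and 55.4 CPM under IL-4 with PGE2 (1.11 ± 0.084, edgeR adjusted p = 2e-09), 168, 190 and 164 against 76.1, 93.0 and 87.6 CPM under IL-4 (1.03 ± 0.083, adjusted p = 5.31e-09), and 188, 214 and 181 against 134, 156 and 142 CPM without stimulus (0.44 ± 0.080, adjusted p = 0.000138). G6pdx was higher by 0.41, 0.54 and 0.24 in the same order. Pgd was not called under IL-4 with PGE2 (0.089, edgeR adjusted p = 0.274), was called higher under IL-4 (0.21, adjusted p = 0.0147) and lower without stimulus (-0.18, adjusted p = 0.029). These 2 calls were lost without some single libraries (edgeR adjusted p up to 0.158 and 0.118). Pgls was called higher under IL-4 with PGE2 only (0.23, edgeR adjusted p = 0.00466; 0.080 under IL-4 and 0.11 without stimulus). Tkt was called only under IL-4 with PGE2 (0.20 ± 0.049, adjusted p = 0.00177), with 313, 313 and 300 against 273, 277 and 255 CPM.

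**Figure D4:**
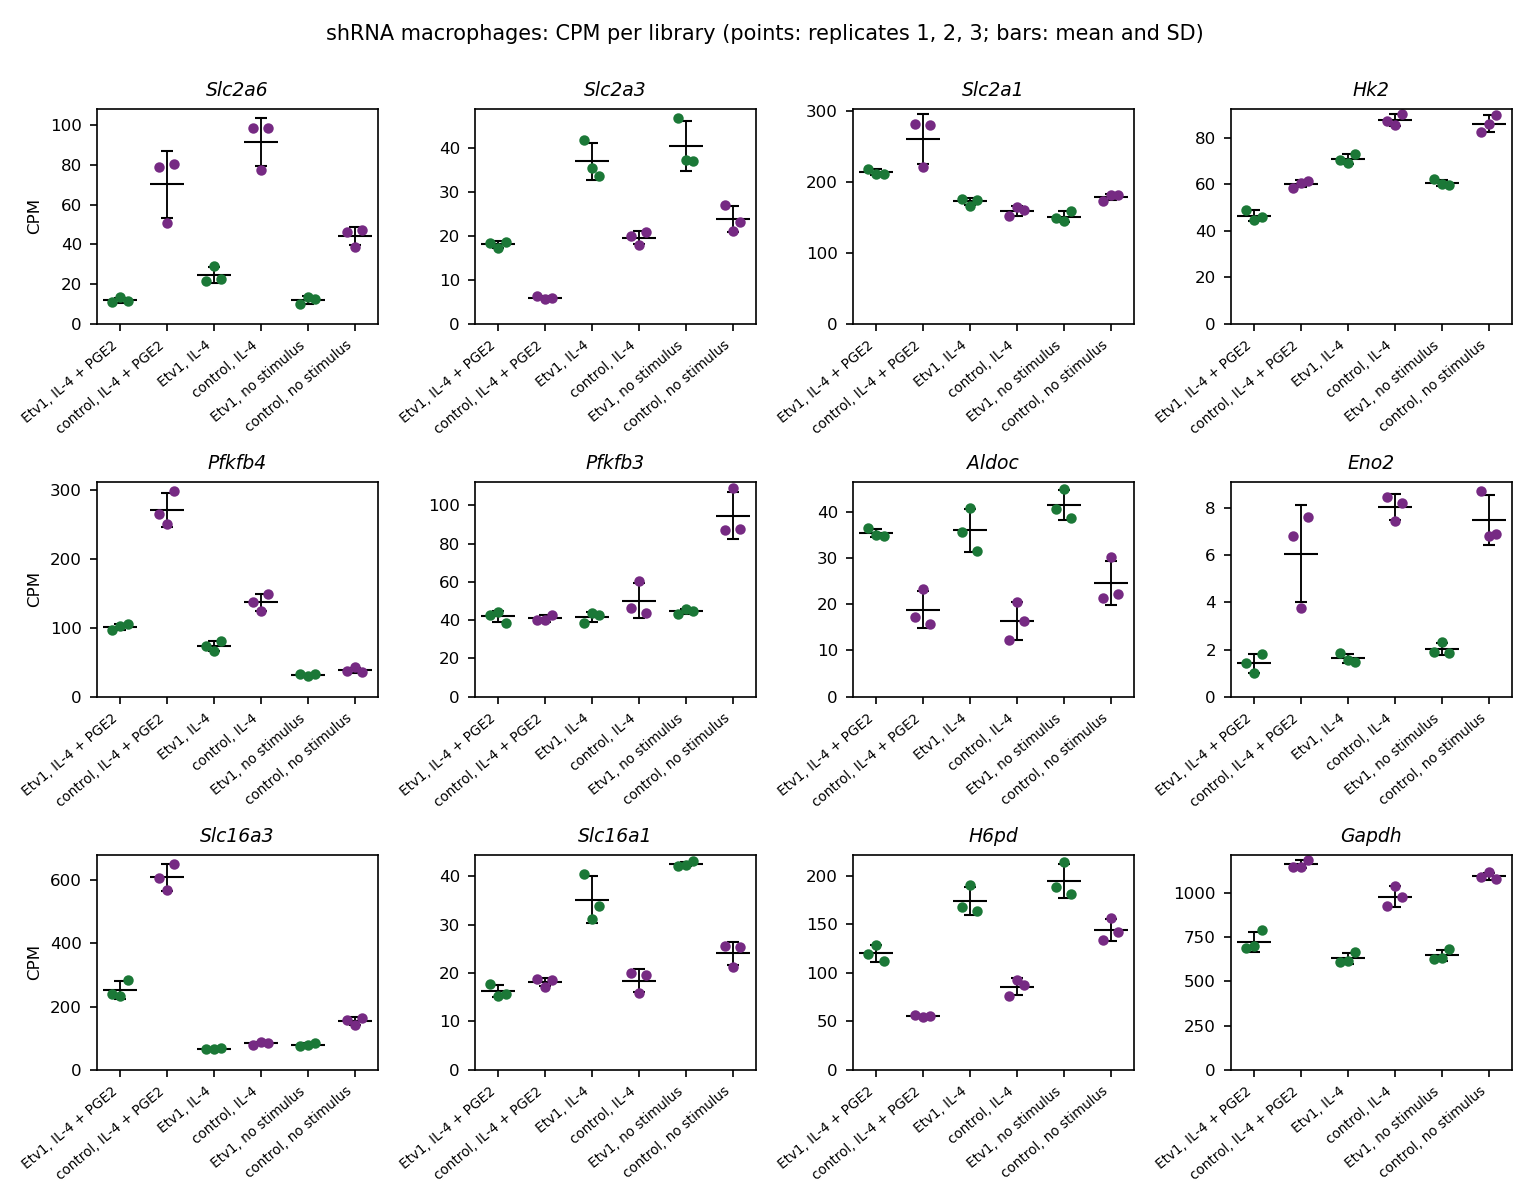
CPM of 12 genes in each shRNA library (points, 3 per group) with the group mean, Etv1 shRNA left of control shRNA within IL-4 with PGE2, IL-4 and no stimulus. Slc2a6 lies at 9.81 to 29.3 CPM in every Etv1 shRNA library and at 38.8 to 98.6 CPM in every control library.

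PGE2 was added to IL-4 in both shRNA backgrounds. With the Etv1 shRNA 20 of the 35 genes were called, 10 higher and 10 lower, against 47.5% of all genes (24.7% and 22.8%), and with the control shRNA 27, 15 higher and 12 lower, against 59.4% (29.3% and 30.1%). Calls were also compared between wild type, control shRNA and Etv1 shRNA cells, which share no library. The share of all genes called alike in these 3 backgrounds is not given here. In all 3, PGE2 raised Pfkfb4, Tpi1, Gapdh, Pgk1, Ldha and Slc16a3 (6 genes) and lowered Slc2a3, Hk2, Pfkp, G6pdx, H6pd, Pgls, Rpia and Tkt (8 genes). For Tpi1 in wild type cells that call was the narrow one given above, and the Gapdh call with the Etv1 shRNA (0.20, adjusted p = 0.0111) was lost without IL-4 replicate 1 (0.18, adjusted p = 0.0513) or PGE2 replicate 3 (0.13, adjusted p = 0.0958). Tkt fell by 0.64 ± 0.049 with the Etv1 shRNA and by 0.86 ± 0.050 with the control shRNA (edgeR adjusted p = 3.95e-09 and 1.93e-11). Pgd, lower with PGE2 in wild type cells, was not called with the Etv1 shRNA (0.046, edgeR adjusted p = 0.6) and was called higher with the control shRNA (0.17, adjusted p = 0.0412). The second call was lost without any 1 of 5 of the 6 libraries (0.094 to 0.18).

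The PGE2 effect differed between the hairpins for 11 of the 35 genes, 4 higher and 7 lower with the Etv1 shRNA, by a test of the difference itself, where 11.6% of all genes passed (6.03% and 5.58%). Slc16a3 rose by 1.93 ± 0.080 with the Etv1 shRNA and by 2.86 ± 0.081 with the control shRNA, a difference of -0.93 ± 0.11 (edgeR adjusted p = 2.29e-05). Slc16a1 fell by 1.11 ± 0.11 with the Etv1 shRNA and changed by -0.024 ± 0.11 with the control shRNA (difference -1.08 ± 0.15, adjusted p = 0.000115). Slc2a3 fell by 1.03 ± 0.11 and by 1.74 ± 0.13 (difference 0.71 ± 0.17, adjusted p = 0.0105). Pfkfb4 rose by 0.46 ± 0.087 with the Etv1 shRNA and by 0.99 ± 0.084 with the control shRNA (difference -0.53 ± 0.12, adjusted p = 0.00669), and Ldha by 0.27 ± 0.064 and 0.66 ± 0.064 (difference -0.39 ± 0.090, adjusted p = 0.00659). In wild type cells the same PGE2 changes were 1.32 for Slc16a3, -1.07 for Slc16a1, -0.90 for Slc2a3, 0.57 for Pfkfb4 and 0.53 for Ldha, from a separate fit and with no test between the experiments.

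IL-4 itself changed 10 genes with the Etv1 shRNA, 4 higher and 6 lower, against 18% of all genes (10.9% and 7.16%), and 23 with the control shRNA, 5 higher and 18 lower, against 34.3% (17.2% and 17.1%). The count with the Etv1 shRNA was 15, 5 higher and 10 lower, with the replicate block, whose numbers were taken to pair these samples. It was 4 to 7 when any 1 library was left out. The split was 3 higher and 8 lower with upper quartile or total library size scaling. Lower glycolysis fell with IL-4 in control shRNA cells, where Aldoa, Tpi1, Gapdh, Pgk1, Pgam1, Eno1 and Pkm were all called lower, by 0.16 to 0.48 on the log2 scale. The Gapdh call was lost without any 1 of 5 of the 6 libraries (-0.17 to -0.11). The IL-4 effect differed between hairpins for 10 genes, 8 higher and 2 lower with the Etv1 shRNA, where 4.51% of all genes passed (2.71% and 1.81%). Among them were Pfkfb3 (-0.098 ± 0.11 with the Etv1 shRNA and -0.92 ± 0.10 with the control shRNA, difference 0.82 ± 0.15, edgeR adjusted p = 0.00282), Pfkfb4 (1.23 ± 0.094 and 1.85 ± 0.090, difference -0.62 ± 0.13, adjusted p = 0.00737), Slc16a3 (-0.27 ± 0.080 and -0.88 ± 0.078, difference 0.61 ± 0.11, adjusted p = 0.00298) and H6pd (-0.16 ± 0.080 and -0.75 ± 0.082, difference 0.59 ± 0.12, adjusted p = 0.00442). With the replicate block the H6pd change with the Etv1 shRNA was called (edgeR adjusted p = 0.0465). Pfkfb4 was raised and Hk1, G6pdx and Pgd were lowered by IL-4 in wild type and in both shRNA backgrounds. The Hk1 and G6pdx calls with the Etv1 shRNA (-0.23 and -0.20) did not hold when single libraries were left out, with adjusted p up to 0.117 and 0.0782.

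**Figure D5:**
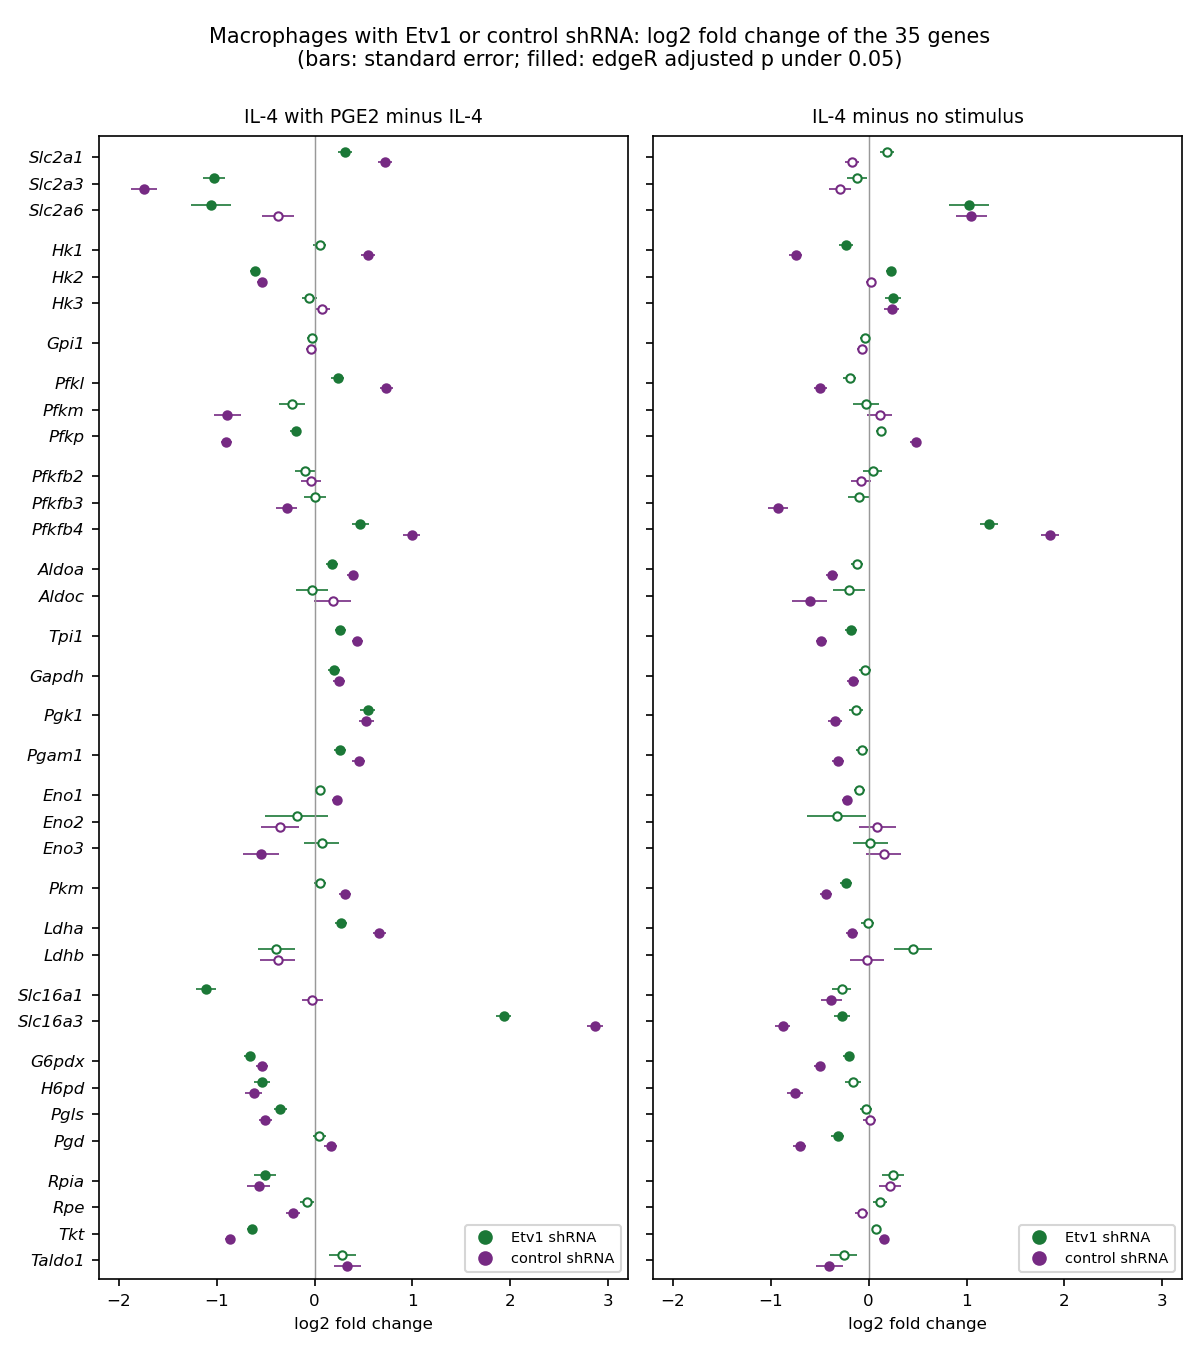
Log2 fold change ± SE of the 35 genes for PGE2 added to IL-4 and for IL-4 against no stimulus, with the Etv1 shRNA drawn above the control shRNA; filled points passed an adjusted p of 0.05. Slc16a3 rose by 1.93 with the Etv1 shRNA and by 2.86 with the control shRNA when PGE2 was added.

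Genes around these pathways were counted from lists made by function. With PGE2 in wild type cells, 10 of 17 tested regulators were higher and 3 lower, 9 of 15 glycogen genes higher and 3 lower, 4 of 15 other isoforms and side enzymes higher and 2 lower, 2 of 13 genes of pyruvate entry higher and 2 lower, and 2 of 9 genes of the hexosamine and serine branches higher and 4 lower, against 29.9% higher and 29.5% lower among all genes. With valinomycin, 3 of the 17 regulators were higher and 3 lower, against 19.4% and 18.9% of all genes. With IL-4 against no stimulus 6 were higher and 2 lower, against 24.1% and 22.4%. In either direction together, the shares of regulators called with valinomycin and IL-4 lie near those of all genes (38.4% and 46.4%). With PGE2, the shares of regulators and glycogen genes called higher lay above that of all genes, and those called lower lay below it. No set test was made. The regulators include genes that promote and genes that restrain glycolysis, so their counts give no direction for the pathway. Hif1a, the oxygen-regulated factor known to drive many glycolytic genes, averaged 231 ± 5.4 CPM with PGE2, 104 ± 4.7 CPM with valinomycin, 70.0 ± 3.5 CPM with IL-4 and 79.0 ± 1.9 CPM without stimulus (SD, n = 3 each). Its change was 1.73 ± 0.050 for PGE2 (edgeR adjusted p = 1.4e-18) and 0.57 ± 0.051 for valinomycin (adjusted p = 5.87e-09). Restraining genes of the list also averaged higher with PGE2 than with IL-4. Egln3 and Vhl, which limit Hif1a, had 93.0 ± 17 and 37.7 ± 1.4 CPM with PGE2 against 39.2 ± 15 and 28.5 ± 3.9 CPM with IL-4. Txnip, which restrains glucose uptake, had 779 ± 31 against 571 ± 99.5 CPM. Emb, embigin, a partner protein of the monocarboxylate carriers, averaged 285 ± 21 CPM with PGE2 against 75.3 ± 6.4 CPM with IL-4 (1.92 ± 0.065, edgeR adjusted p = 2.48e-16), and Bsg, basigin, the partner of MCT1 and MCT4, 300 ± 8.0 against 257 ± 19 CPM (0.23 ± 0.053, adjusted p = 0.000832). Myc fell with both agents, to 60.7 ± 7.3 CPM with PGE2 and 55.6 ± 2.2 CPM with valinomycin, against 96.7 ± 8.0 CPM with IL-4. Nfe2l2, the factor NRF2 known to drive pentose phosphate genes, fell to 114 ± 4.1 CPM with PGE2 and rose to 245 ± 17 CPM with valinomycin, against 166 ± 2.2 CPM with IL-4. Pdp1, the phosphatase that activates pyruvate dehydrogenase, also had opposite changes, of -1.01 ± 0.076 with PGE2 and 0.85 ± 0.065 with valinomycin.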

How the data were processed

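Polyadenylated RNA was sequenced from 30 libraries in 10 groups of 3, with a stranded kit on a HiSeq instrument, per the labels' protocols. The deposited values are raw read counts per Ensembl gene (43629 IDs), made by the authors with STAR and featureCounts on GRCm38, per the submitters' processing notes, which also name DESeq2 and deepTools and give no versions. Whether featureCounts used strand is not given in the sources used here, and genes with an overlapping or antisense partner are uncertain. Replicates differed by more than sampling noise (chi-square over degrees of freedom 1.246 or more), so none was merged. In the control shRNA groups, pairs with replicate 2 stood at 12.94 to 21.87, and replicates 1 and 3 at 2.93 to 4.888. Control replicate 2 was the highest of its group for 22 of the 35 genes under IL-4 and the lowest for 23 under IL-4 with PGE2. It enters every comparison between the hairpins.

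Symbols, coordinates and merged exon lengths came from GENCODE M21 (42548 IDs matched, 97.52%), and promoter sequences from RefSeq. The wild type (12 libraries) and shRNA (18 libraries) experiments were fitted apart in R 4.3.3 with edgeR 4.0.16 (TMM, filterByExpr, robust quasi-likelihood), keeping 12824 and 12382 genes. Called means a Benjamini-Hochberg adjusted p under 0.05 over all genes of the experiment. The standard error (SE) is the absolute log2 fold change over the square root of F. CPM values were scaled by TMM within each experiment, so levels are not compared between experiments. The script was tested on simulated counts. Low counts limit precision, and floors of 3 counts cover counting error only.

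The members and the lists were chosen with earlier results of these data known, so none is independent evidence. Members described in full were the 12 with the largest called change in the comparisons of the wild type groups with IL-4 or no stimulus and of the hairpins; 24 of the 35 had a called change of at least 0.5, and others are named by role. Alternatives were DESeq2 1.42.0, other size factors, no filter on low counts, only the groups compared, a replicate block and leaving out each library.

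The replicate numbers of the labels were checked for pairing by the correlation of same-numbered libraries' deviations from their group means. Every pair exceeded 0.1 for PGE2 against valinomycin in wild type cells (0.117 to 0.249). The same held within each shRNA for IL-4 (0.308 to 0.588 control, 0.265 to 0.43 Etv1) and for PGE2 (0.2 to 0.507 control, 0.153 to 0.397 Etv1). There the numbers were taken to pair the samples. For the other comparisons not every pair exceeded 0.1. This cutoff was a choice, and the correlations do not show what same-numbered libraries share. The main fit had no replicate block.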

Additional observations from a re-analysis of the deposited data

Results flagged for a closer look

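These values were singled out because the same contrast gave different effects in different groups of libraries. Between the Etv1 and control shRNA, the difference of the PGE2 effects passed edgeR's test of the difference itself for 11 genes. On the log2 scale, the difference (Etv1 shRNA minus control shRNA) was -0.414 for Slc2a1, 0.707 for Slc2a3, -0.493 for Hk1, -0.498 for Pfkl, 0.661 for Pfkm, 0.705 for Pfkp, -0.526 for Pfkfb4, -0.394 for Ldha, -1.08 for Slc16a1, -0.932 for Slc16a3 and 0.226 for Tkt. The Pfkm and Tkt calls were lost when some single libraries were left out, with adjusted p up to 0.126 and 0.122.

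The difference of the IL-4 effects passed for 10 genes. It was 0.362 for Slc2a1, 0.515 for Hk1, -0.352 for Pfkp, 0.823 for Pfkfb3, -0.62 for Pfkfb4, 0.303 for Tpi1, 0.605 for Slc16a3, 0.299 for G6pdx, 0.591 for H6pd and 0.389 for Pgd. The Slc2a1, Tpi1, G6pdx and Pgd calls were lost when some single libraries were left out, with adjusted p up to 0.184, 0.182, 0.151 and 0.0977.

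IL-4 moved 3 genes in opposite directions in wild type and in control shRNA cells, with IL-4 and unstimulated libraries separate in both. The IL-4 change was 0.864 in wild type and -0.173 in control shRNA cells for Slc2a1, 0.477 and -0.494 for Pfkl, and 0.376 and -0.382 for Slc16a1. The 2 experiments were fitted apart, so this difference was not tested, and transduction and experiment cannot be told apart. The Slc2a1 value in control shRNA cells did not pass the test (adjusted p = 0.0708; 0.0392 with the replicate block), and the wild type Pfkl call rests on single libraries, since without IL-4 replicate 2 it was 0.29 (adjusted p = 0.126).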

How the results depend on the processing

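Of the 253 called values of the 35 genes over the 13 comparisons, 242 stayed called in the same direction with DESeq2, 249 with RLE size factors, 244 with upper quartile factors, 236 with total library size, 239 with no filter on low counts, 236 with only the groups compared and 253 with the replicate block. With each library left out in turn, 193 of the 253 held in every fit. The number of genes called for IL-4 with the Etv1 shRNA was 10 and ranged over 4 to 7 without single libraries, and that for the difference of the IL-4 effects, also 10, over 6 to 12. Without replicate 2 of the wild type IL-4 group, 26 genes were called for PGE2 (24 of them the same as with it), 12 for valinomycin (12 the same) and 16 for IL-4 (14 the same).

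Values that changed sign were small. Between the hairpins without stimulus, leaving out single libraries moved Aldoa over -0.00254 to 0.0363 and Tpi1 over -0.00786 to 0.048. Under IL-4, Eno1 was -0.00265 with no filter on low counts and -0.0251 to 0.0391 without single libraries. Under IL-4 with PGE2, total library size gave 0.0492 for Pgam1 and 0.00293 for Eno1, whose value of -0.155 was called (adjusted p = 0.0177), and Pfkl ranged over -0.0707 to 0.0768. The cause was not tested for any of these.

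With the replicate block, where the numbers were taken to pair the samples, IL-4 called 15 genes in place of 10 with the Etv1 shRNA. Those added were Slc2a1 (0.189), Pfkl (-0.194), Slc16a1 (-0.286), H6pd (-0.159) and Taldo1 (-0.256). It called 25 in place of 23 for IL-4 and 28 in place of 27 for PGE2 with the control shRNA, 21 in place of 20 for PGE2 with the Etv1 shRNA, and 26 in both fits for PGE2 against valinomycin. Elsewhere the block, by numbers not shown to pair the samples, called 18 for IL-4, 26 for PGE2 and 18 for valinomycin in wild type cells, 25, 24 and 25 between the hairpins under no stimulus, IL-4 and IL-4 with PGE2, and 12 for each difference of effects. No call was lost with the block. Depth limits the least abundant genes, such as Eno2 and Slc2a3.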

Other observations

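Genes next to the pathways were compared between the hairpins. In the hexosamine and serine branches, which draw on fructose 6-phosphate and 3-phosphoglycerate, 6 of 9 tested genes were higher with the Etv1 shRNA than with the control shRNA and 0 lower under IL-4 with PGE2, 6 higher and 1 lower under IL-4, and 7 higher and 0 lower without stimulus, where 27.6%, 25.4% and 24.9% of all genes were higher and 26.7%, 25.6% and 26.8% lower in these conditions. Gfpt1, the rate-limiting enzyme of hexosamine synthesis, averaged 161 ± 17 CPM with the Etv1 shRNA against 88.2 ± 3.4 CPM with the control shRNA under IL-4 with PGE2, 131 ± 20 against 52.1 ± 4.7 CPM under IL-4, and 121 ± 19 against 66.9 ± 7.5 CPM without stimulus (SD, n = 3 each). Psat1 and Psph of serine synthesis and Shmt2, which turns serine into glycine in mitochondria, were also higher in each condition, by 0.40 to 1.15 on the log2 scale. Phgdh of the same list varied. It was higher under IL-4 with PGE2 (0.419, edgeR adjusted p = 0.0346) and lower under IL-4 (-0.45, adjusted p = 0.00772). Without stimulus it was not called (-0.0937, adjusted p = 0.591). Of 15 glycogen genes, 7, 8 and 7 were higher and 4, 2 and 4 lower in the same order of conditions, and Gbe1, the branching enzyme, was higher by 1.02, 1.25 and 0.709. Txnip, a protein that restrains glucose uptake, was lower in each, by 0.979, 1.15 and 0.989. The summed level of 8 macrophage markers, 8890 to 10400 CPM with the Etv1 shRNA and 15900 to 21400 CPM with the control shRNA, moved with all of these, and its part in them was not tested.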
